A study of Mus musculus with 2 samples.

Results

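The S100 genes encode small proteins that mostly form dimers and dock on target proteins. Most of them bind calcium through a pair of EF-hand loops before docking. Their use was described here for 8 members of the family, S100a8, S100a9, S100a4, S100a6, S100a10, S100a11, S100b and S100a1, which were found by gene symbol among the 32285 measured genes. All 8 were measured in both libraries. The cells were myeloid cells from the ankle joint synovium of mouse bone marrow chimeras, in which CD45.1 B6 marrow had been given to CD45.2 B6 hosts whose ankle was shielded from irradiation. The steady-state library was made from chimeras without treatment, and the day 7 library from chimeras 7 days after 200 µL of clodronate liposomes had been injected retro-orbitally, an agent that kills phagocytes which take it up. Both groups carried the same chimerism, and both had been sorted for CD45 and CD11b, leaving out cells stained for the granulocyte proteins Ly6G, CD177 and SiglecF and cells stained for Ly6C, CD64 or MHCII. The number of animals pooled per library is not given in the labels. RNA and 92 surface antibodies were read from the same cells by CITE-seq.

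The members differ in their partners and usual cell types. S100A8 and S100A9 pair to form calprotectin, a zinc- and manganese-binding antimicrobial complex that fills the cytosol of neutrophils and also signals outside the cell. S100A4 binds non-muscle myosin heavy chain 9, S100A6 binds the Siah1-interacting protein Cacybp, S100A10 forms a tetramer with annexin A2, and S100A11 binds annexin A1. S100B is best known from astrocytes and Schwann cells, and S100A1 from heart and skeletal muscle. In a joint, neutrophils and their precursors, blood-derived monocytes, macrophages of the lining and of the deeper tissue, and fibroblasts can all be met with different members of the family.

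After filtering, 1630 steady-state cells with 17060676 UMIs and 1200 day 7 cells with 10824984 UMIs remained, with medians of 9558.5 and 8309 UMIs per cell, and no cell barcode was shared between the libraries. Cells were put into classes by marker genes that include no S100 gene. Early granulocytes carried granule protease RNA (Mpo, Elane, Prtn3 and others; 0 cells at steady state and 50 at day 7). Late granulocytes carried RNA of later granule proteins (Ltf, Camp, Ngp, Lcn2 and others; 5 and 89 cells). The early gate was applied first, so early granulocytes could also pass the late gate. At day 7, 127 cells passed the late gate and 89 were classed as late. The early class had medians of 247.7 early and 496.4 late marker UMIs per 10000. Classical monocytes (189 and 554 cells), Ly6C-low monocytes (118 and 109) and intermediate monocytes that passed both gates (35 and 54) followed. Macrophages (865 and 148) were divided into Vsig4 (422 and 69), Lyve1 (297 and 55), Aqp1 (82 and 16), Cd209 (40 and 6) and other (24 and 2) subsets. The remaining classes were cDC2, a dendritic cell type (83 and 14), and fibroblasts (65 and 16), while 270 and 151 cells stayed ungated. The gates were named by their RNA and go partly against the sort: the classical gate had a median of 49 (steady state) and 56 (day 7) Ly6C antibody counts per cell, and the steady-state fibroblast gate a median of 3 CD11b antibody counts. Levels are given as UMIs per 1000000 UMIs of a class (CPM). Ranges after a value are 95% intervals that cover counting error only and leave out the spread between cells, animals and sorts. With 1 library per group no difference between the groups has a replicate check, and no p-value is given.

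In the mm10 mouse genome 7 members lie on chromosome 3 and S100b lies on chromosome 10 (chr10:76253836-76261319). S100a8 (chr3:90669071-90670034, plus strand) and S100a9 (chr3:90692630-90695721, minus strand) are neighbours 22595 bases apart with 0 annotated genes between them. S100a1 (chr3:90511034-90514330), S100a4 (chr3:90603770-90606045) and S100a6 (chr3:90612894-90614414) lie near them, and S100a11 (chr3:93520496-93526288) and S100a10 (chr3:93555117-93564645) form a separate group. S100a1 overlaps its neighbour S100a13 by 98 bases, and how reads there were assigned is not given in the sources used here. Because S100a8 and S100a9 are neighbours with the closest pattern over the classes (r = 0.99), the 250 bases before their starts are shown, from RefSeq on GRCm38.p6 (the assembly behind mm10), 5′ to 3′ on each gene's own strand. The capitals mark matches to the C/EBP pattern TTNNGNAA and the PU.1 pattern GAGGAA, searched on both strands. These are binding patterns of transcription factors known for granulocyte and monocyte genes.

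S100a8 (chr3:90668821-90669070): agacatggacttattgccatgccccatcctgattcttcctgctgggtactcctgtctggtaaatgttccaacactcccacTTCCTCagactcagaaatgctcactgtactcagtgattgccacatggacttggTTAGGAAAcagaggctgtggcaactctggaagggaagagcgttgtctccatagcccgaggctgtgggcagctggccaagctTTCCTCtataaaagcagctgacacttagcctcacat
S100a9 (chr3:90695722-90695971): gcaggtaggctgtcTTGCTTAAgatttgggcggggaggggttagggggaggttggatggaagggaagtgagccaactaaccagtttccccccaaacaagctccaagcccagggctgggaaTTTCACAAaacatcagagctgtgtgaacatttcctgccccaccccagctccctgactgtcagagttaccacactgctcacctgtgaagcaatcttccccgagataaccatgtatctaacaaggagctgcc

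The S100a8 window held 1 C/EBP match, starting 117 bases before the gene's start, and 2 PU.1 matches on the reverse strand at 170 and 36 bases before it. A TATAAA stretch began 30 bases before the start, directly after the second PU.1 match. The S100a9 window held 2 C/EBP matches at 236 and 130 bases before the start, and no match to the PU.1 pattern or TATAAA. Of 27025 mouse promoters in the same table, searched over windows of the same length, 36.9% held the C/EBP pattern, 23% the PU.1 pattern and 8.12% TATAAA on the gene's strand. Promoters of 7 of the 8 members were matched. A match describes letters and not a bound site.

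S100a8 and S100a9 RNA belonged to the granulocyte gates. In the 89 late granulocytes of day 7, S100a8 stood at 136608 CPM (135904 to 137315) and S100a9 at 140856 CPM (140141 to 141574). In the 50 early granulocytes the levels were 62563 and 64166 CPM. Together the pair made up 12.7% of all UMIs of the early and 27.7% of those of the late granulocytes. Per cell, the share ran from 1.14 to 23.6% with a median of 13.3% in early granulocytes, and from 1.66 to 41.9% with a median of 27.4% in late granulocytes. The granulocyte gates held 97.7% of the day 7 library's S100a8 and S100a9 UMIs in 139 of its 1200 cells. At steady state there were 5 late granulocytes, in which the pair took 0.353 to 26.3% of a cell's UMIs with a median of 21.6%, and these 5 cells held 93.3% of that library's pair UMIs. By its label the sort had excluded Ly6G and CD177, surface proteins of mature neutrophils. The Ly6G antibody median was 2 counts in early and 4 in late granulocytes of day 7, and 0 in the 5 late granulocytes of steady state. CD177 protein counts are not given here.

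Compared with all other gated cells of day 7, granulocytes had 239.6-fold more S100a8 and 522.7-fold more S100a9 (log2 ratios 7.90 and 9.03). Of 7 members with at least 20 CPM on either side, these 2 were at least 2-fold higher in granulocytes, beside 9.98% of all 6285 genes. S100a4 (log2 -5.75, -6.06 to -5.45), S100a10 (-5.87, -6.38 to -5.40) and S100a6 (-2.58, -2.66 to -2.51) were at least 2-fold lower, beside 32.6% of all genes. S100a11 (0.66) and S100a1 (0.62) were higher by less than 2-fold. No S100b UMI was counted in the 139 granulocytes. Since the pair takes a large part of a granulocyte's UMIs, CPM of other genes are pressed down there, and with the pair left out of the totals S100a4 was still at log2 -5.41.

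Across granulocyte stages the members differed in direction. Stage was taken as late granule RNA divided by early plus late granule RNA, in 5 ranges with at least 8 cells each (a range of 2 cells was left out). S100a8 went from 28146 CPM in the 17 earliest cells through 48022, 88546 and 114885 to 148021 CPM in the 67 latest cells, and S100a9 from 24004 to 150738 CPM. S100a6 had 14.04 CPM (3 UMIs) in the earliest cells, 262.6 (in 8 cells), 9.08 and 336 CPM in the next ranges and 2097 CPM (1989 to 2209) in the latest. S100a11 lay between 1183 and 1701 CPM in all 5 ranges. S100a1 ran the other way, from 243 CPM (182 to 319) in the earliest to 53.6 CPM (37.5 to 74.2) in the latest cells. S100a4 and S100a10 stayed at or below 129 and 37.2 CPM in all 5 ranges. Between the gates, early granulocytes had 2.10-fold more S100a1 than late ones (log2 1.07, 0.70 to 1.45) and 20.3-fold less S100a6 (log2 -4.34, -4.75 to -3.96). Of the 7 members, S100a1 was at least 2-fold higher in early granulocytes, beside 17.5% of all genes, and 4 (S100a8, S100a9, S100a6, S100a10) were at least 2-fold lower, beside 6.80%. S100a8 and S100a9 took 12.67% of early and 27.75% of late granulocyte UMIs, so CPM of other genes were pressed down more in late ones. S100a1 lay close to the 2-fold limit, and its ratio with the pair left out of the totals is not given here.

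**Figure D1:**
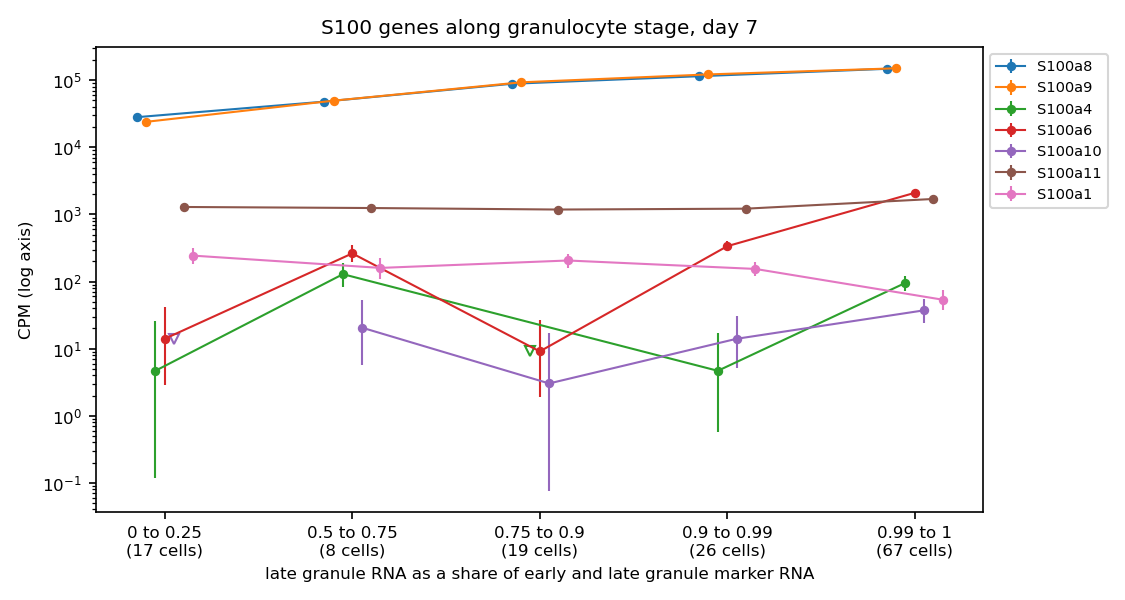
CPM (log axis) of 7 S100 genes in day 7 granulocytes, by the share of late granule RNA in early plus late granule marker RNA; bars are 95% counting intervals and open triangles mark ranges with 0 UMIs at the level of 3 UMIs. S100a8 and S100a9 climb from 28146 and 24004 CPM to 148021 and 150738 CPM, S100a6 climbs unevenly to 2097 CPM and S100a1 goes down to 53.6 CPM.

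Outside the granulocyte gates the pair was present at far lower levels, which set the background. In day 7 macrophages S100a8 stood at 35.8 CPM (25.2 to 49.3) and S100a9 at 73.5 CPM (57.9 to 91.9), against 8.71 and 5.38 CPM in steady-state macrophages. In the Vsig4 subset of day 7 the levels were 21.2 and 71.4 CPM, and in the Lyve1 subset 51.9 and 77.9 CPM. No macrophage held more than 4 UMIs of the pair at day 7, or more than 3 at steady state. Steady-state fibroblasts, which should lack both genes, had 4.64 and 10.8 CPM, and the 16 fibroblasts of day 7 had 101.8 CPM (43.9 to 200.5) and 63.6 CPM (20.7 to 148.4). After each cell had been thinned to 2000 UMIs, 5.51% of day 7 macrophages had an S100a8 UMI and 12.6% an S100a9 UMI (21.6 and 37.8% before thinning), beside 1.60 and 1.11% at steady state (8.21 and 5.32% before thinning). Day 7 is the library with the 139 granulocytes, and whether their RNA in the cell suspension set these levels was not tested.

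Classical monocytes of day 7 stood above the macrophages in CPM, more clearly for S100a8 than for S100a9. They had 531 CPM of S100a8 (512 to 551) and 208 CPM of S100a9 (196 to 221). At 2000 UMIs per cell, 24.4% of them had an S100a8 UMI and 14.7% an S100a9 UMI (50.4 and 48.4% before thinning, at a median of 9355.5 UMIs). At 2000 UMIs the S100a9 share lay close to that of day 7 macrophages given above, and the S100a8 share lay above theirs. At that depth 9.23% of 509 classical monocytes carried 3 or more pair UMIs, against 0.787% of 127 macrophages, while all 105 granulocytes carried 10 or more. The 5 richest cells held 35.8% of the class's pair UMIs, and without them S100a8 was at 361.6 CPM and S100a9 at 119.9 CPM. That S100a9 level lay within the interval of the day 7 fibroblasts given above. It was above the 54.9 CPM of macrophages treated the same way. Of early granulocyte markers the 5 richest classical monocytes had 32.8, 9.98, 0, 23.8 and 16.85 UMIs per 10000, against a class median of 0. Their late granulocyte markers were at 23.3, 15.3, 7.60, 1.79 and 8.65 UMIs per 10000, against a class median of 2.73. Both granulocyte gates were applied before the monocyte gates, so cells richer in these markers had mostly been taken out. Mpo, Elane and Prtn3 had 1366 UMIs in the 554 cells of this class, against 7 in 109 Ly6C-low monocytes and 6 in 148 macrophages. Whether granulocyte precursor RNA set part of the pair's level was not tested. At steady state the classical gate had 341 and 213 CPM, but 1 cell held 865 of its 1042 pair UMIs, and without the 5 richest cells 13.4 and 5.02 CPM remained. Without those cells in either library, day 7 over steady state was at a log2 ratio of 4.76 for S100a8 and 4.58 for S100a9, in place of 0.64 and -0.03.

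The proportion of the pair also differed between classes at day 7. Granulocytes had 1.03 S100a9 UMIs per S100a8 UMI (1.02 to 1.04), whereas day 7 classical monocytes had 0.392 (0.366 to 0.420) and, without their 5 richest cells, 0.332. Ly6C-low monocytes had 1.04 (0.689 to 1.57), the same as granulocytes within counting error. Macrophages had 2.05 (1.37 to 3.13), and the Vsig4 subset 3.36 (1.68 to 7.31), on the other side of the granulocyte value. At steady state the direction was the reverse. Macrophages there had 0.617 (0.425 to 0.889) and the Vsig4 subset 0.388 (0.216 to 0.671), below 0.957 (0.933 to 0.981) in the 5 late granulocytes. The Lyve1 subset of steady state had 1.09 (0.592 to 2.00). The pair was also set against the summed UMIs of 5 late granule genes (Camp, Ngp, Ltf, Lcn2 and Retnlg) at day 7. It was at 2.25 (2.24 to 2.27) in granulocytes, 1.89 (1.34 to 2.69) in Ly6C-low monocytes and 2.09 (1.50 to 2.95) in macrophages. Classical monocytes had 5.57 (5.15 to 6.03), and 3.90 without the 5 richest cells. The intervals of Ly6C-low monocytes and macrophages thus held the granulocyte value of this ratio, and that of classical monocytes did not. These 5 genes are also markers of the late granulocyte gate, which was applied before the monocyte and macrophage gates. Cells rich in them were mostly taken out of those classes, so the ratio depends in part on the gates.

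Single cells decided the pair's level in 2 further classes. The intermediate monocytes of day 7 had 917 and 637 CPM of S100a8 and S100a9, but 1 of the 54 cells held 795 of 903 pair UMIs, and without the 5 richest cells 39.8 and 55.8 CPM remained. Ly6C-low monocytes of steady state had 173 and 255 CPM, with 348 of 366 pair UMIs in 1 of 118 cells, and 7.49 and 4.99 CPM without the 5 richest. That cell carried 50 Ly6G antibody counts, against a class median of 0. In the day 7 Ly6C-low class, where 75.8 and 78.9 CPM were measured, no cell held more than 7 pair UMIs.

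**Figure D2:**
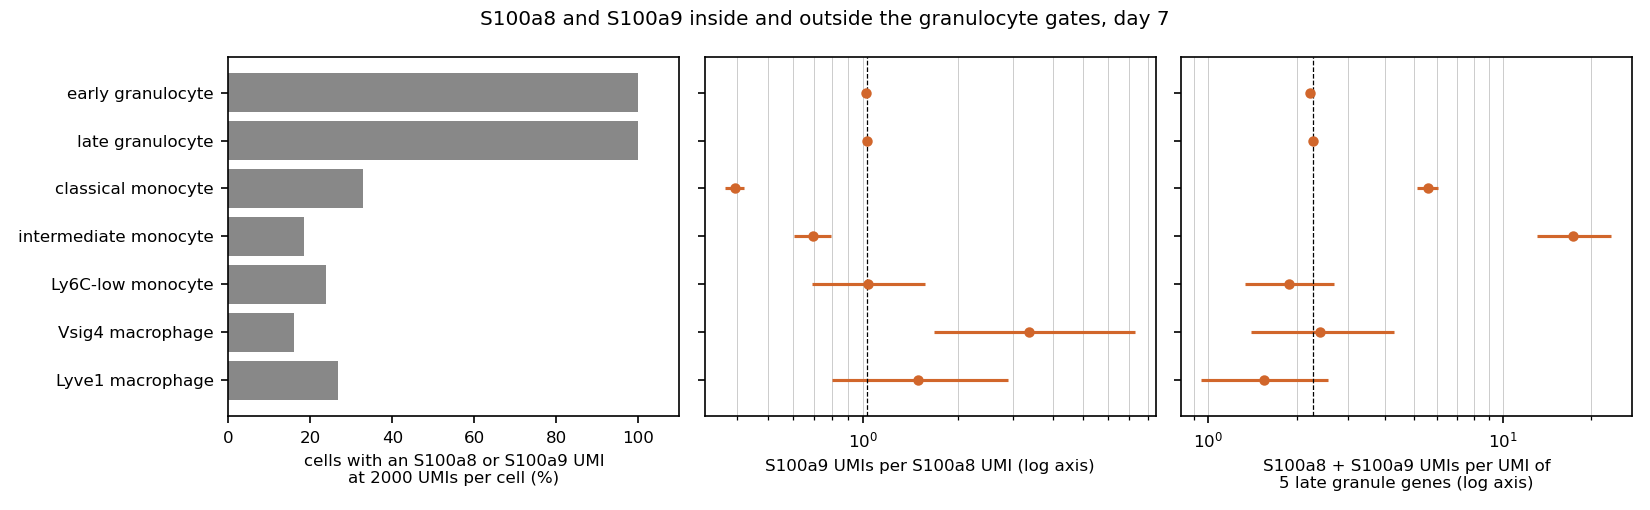
S100a8 and S100a9 in 7 cell classes of day 7: percent of cells with a UMI of the pair at 2000 UMIs per cell (bars, left), S100a9 UMIs per S100a8 UMI (centre) and pair UMIs per UMI of 5 late granule genes (right), the latter on log axes with 95% counting intervals and a dashed line at the late granulocyte value. Classical monocytes sit at 0.392 and 5.57, away from the line in both ratios, and Ly6C-low monocytes at 1.04 and 1.89, on it within error.

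S100a4, S100a6 and S100a10 were high in macrophages and cDC2 and lower in monocytes. In the granulocyte gates of day 7 S100a4 and S100a10 were at 62.6 CPM or less, while S100a6 was low in early and at 1471 CPM in late granulocytes. At steady state S100a4 was highest in Aqp1 macrophages at 4047 CPM (3911 to 4188). Lyve1 macrophages (3514) and cDC2 (3413) came next with overlapping intervals, then Vsig4 macrophages (3050), other macrophages (2484), Cd209 macrophages (2018), fibroblasts (1871), classical (1771) and intermediate (1678) monocytes and, last, Ly6C-low monocytes at 1049 CPM (982 to 1120). From Cd209 macrophages to intermediate monocytes each neighbour overlapped the next. At day 7 Lyve1 (4357) and Vsig4 (4017) macrophages overlapped at the top, and late and early granulocytes were at 62.6 and 32.5 CPM. At 2000 UMIs per cell 5.71% of granulocytes had an S100a4 UMI, against 95.9% of classical monocytes of the same library (11.5 and 98.4% before thinning).

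S100a6 followed nearly the same order. It was highest in Aqp1 macrophages at 13171 CPM (12923 to 13422), with cDC2 (10577) and Lyve1 macrophages (10565) next and overlapping. Fibroblasts, at 8101 CPM, stood above Vsig4 macrophages at 7616, and classical, intermediate and Ly6C-low monocytes had 4105, 3245 and 2097 CPM with separate intervals. At day 7 Lyve1 macrophages had 11727, Vsig4 macrophages 8393, classical monocytes 4477 and Ly6C-low monocytes 2924 CPM. Late granulocytes had 1471 CPM and early granulocytes 72.5 CPM (55.0 to 93.7), and none of the 35 early granulocytes with enough depth had an S100a6 UMI at 2000 UMIs per cell.

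S100a10 was led by cDC2 at 4908 CPM (4791 to 5027) and Aqp1 macrophages at 4405 CPM (4262 to 4551). Lyve1 macrophages had 3024, Vsig4 macrophages 1996, fibroblasts 1408 and classical monocytes 984 CPM, and intermediate (396) and Ly6C-low (307) monocytes overlapped at the bottom. At day 7 the order was Lyve1 macrophages (2981), Vsig4 macrophages (1827), classical (934), intermediate (650.4) and Ly6C-low (297) monocytes, late granulocytes (29.4) and early granulocytes (6.25), with no overlap between neighbours. S100a10 was thus at a similar level in Ly6C-low monocytes of both libraries, 307 and 297 CPM. Among the 100 steady-state and 79 day 7 cells of this class without a Ly6c2 UMI it was lower at day 7. The levels there were 281 and 211 CPM (log2 -0.41, -0.79 to -0.05).

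Between the large classes, macrophages exceeded classical monocytes in S100a6 (log2 1.14 at steady state and 1.16 at day 7), S100a10 (1.38 and 1.33) and S100a4 (0.88 and 0.82). At least 2-fold higher in macrophages were 4 of 8 members in each library (S100a6, S100a10, S100b and S100a1), beside 21.9% of genes at steady state and 21.0% at day 7. S100a8 and S100a9 were at least 2-fold lower at steady state, beside 11.1% of genes, and these with S100a11 at day 7, beside 12.7%. Without the 5 richest cells of each class, the steady-state levels in macrophages and classical monocytes were 6.54 and 13.4 CPM for S100a8 and 4.32 and 5.02 CPM for S100a9, so that the S100a9 difference was under 2-fold. Ly6C-low monocytes were below classical monocytes in S100a10 in both libraries (log2 -1.68 and -1.65) and in S100a6 (-0.97 and -0.61). S100a10 was the member at least 2-fold lower at steady state, beside 7.80% of genes. At day 7 it was joined by S100a11, S100a8 and S100a9, beside 9.44% of genes. No member was at least 2-fold higher, beside 7.96 and 7.11% of genes. S100a4 was lower in Ly6C-low monocytes at steady state (log2 -0.76, -0.86 to -0.65) and level with classical monocytes at day 7 (0.02, -0.06 to 0.10).

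**Figure D3:**
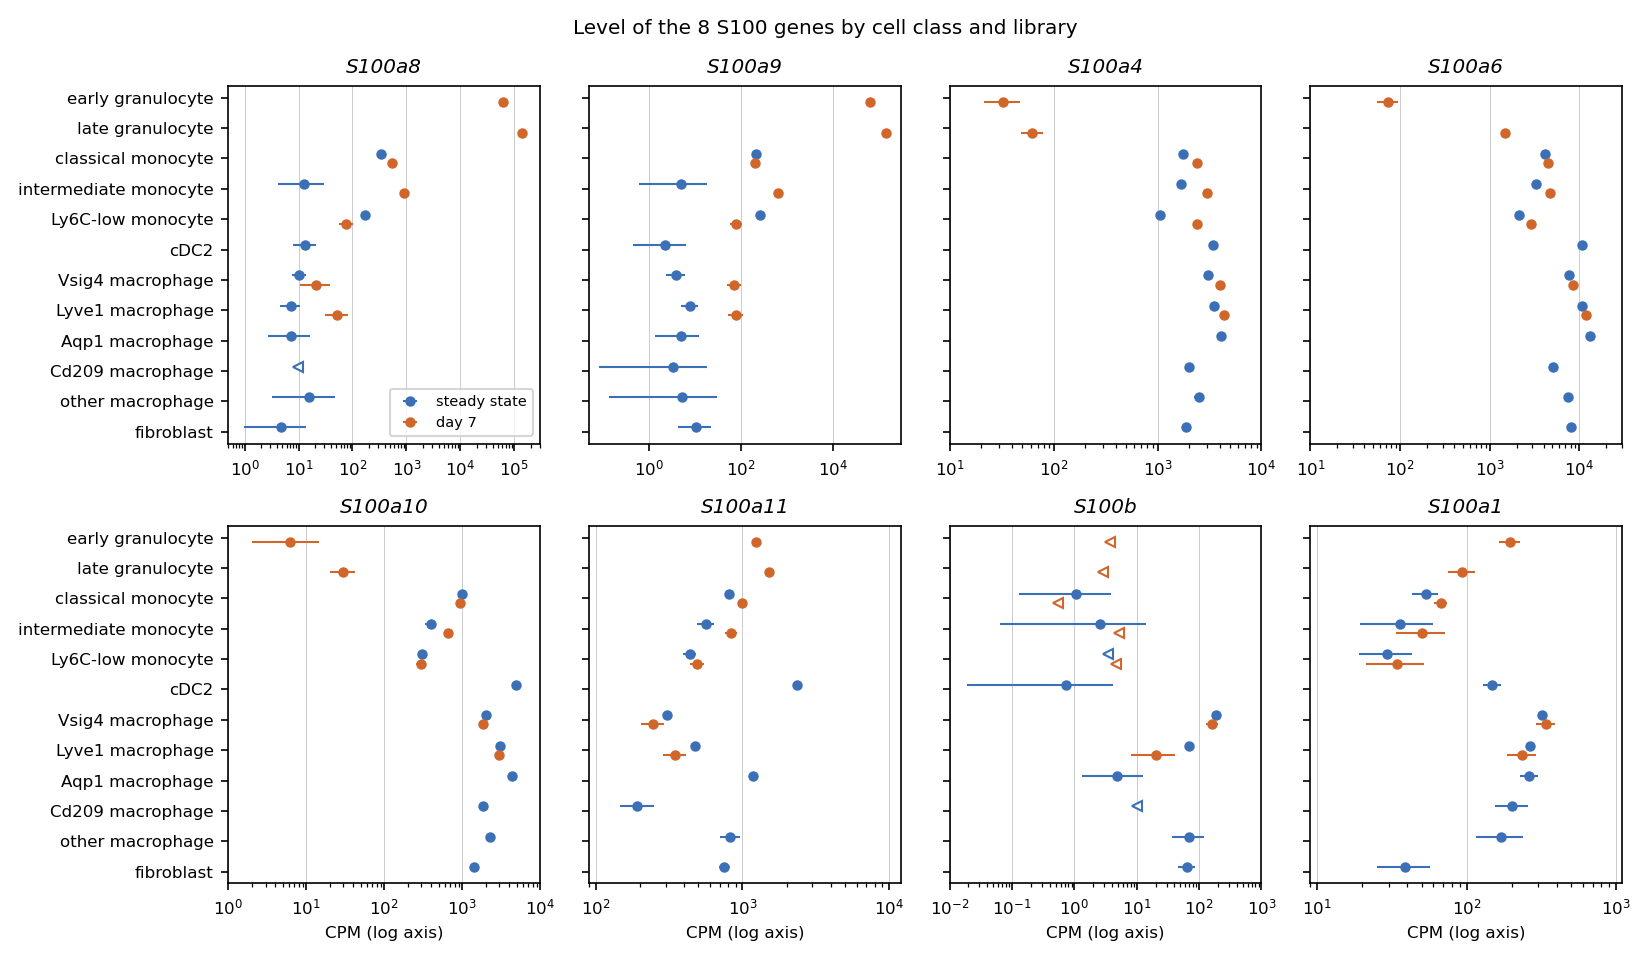
CPM (log axes, which differ between panels) of the 8 S100 genes in classes of at least 20 cells, steady state in blue and day 7 in orange, with 95% counting intervals; open triangles mark 0 UMIs at the level of 3 UMIs. S100a4, S100a6 and S100a10 are lowest in granulocytes, S100a11 is highest in cDC2 (2368 CPM) and late granulocytes (1523 CPM), and S100b stands out in Vsig4 macrophages (185 and 160.1 CPM).

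S100a11 had a different order. At steady state it peaked in cDC2 at 2368 CPM (2287 to 2451), followed by Aqp1 macrophages at 1177 CPM (1104 to 1254). Other macrophages (828), classical monocytes (812) and fibroblasts (754) overlapped, Lyve1 macrophages had 473, Vsig4 macrophages 306 and Cd209 macrophages 192 CPM (146 to 248). At day 7 late granulocytes (1523) and early granulocytes (1246) led, ahead of classical monocytes (999), and Vsig4 macrophages were last with 245 CPM (204 to 292). The 14 cDC2 of day 7, below the 20-cell minimum, had 2190 CPM. Compared with all other gated cells of steady state, cDC2 had 4.53-fold more S100a11 (log2 2.18, 2.12 to 2.24) and 2.39-fold more S100a10 (log2 1.26, 1.22 to 1.30). These 2 of 8 members were at least 2-fold higher there, beside 5.08% of all genes. Macrophages were below classical monocytes in S100a11, by log2 -0.86 at steady state and -1.55 at day 7, which sets it apart from S100a4, S100a6 and S100a10. RefSeq lists a pseudogene copy, S100a11-ps, so reads of S100a11 could have been shared with it.

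S100b was highest in Vsig4 macrophages, at 185 CPM (173 to 198) at steady state and 160.1 CPM (128 to 198) at day 7. Vsig4, a complement receptor, is known from the macrophages that line the joint cavity. Other macrophages (69.0), Lyve1 macrophages (67.7) and fibroblasts (63.4) followed at steady state with overlapping intervals. Aqp1 macrophages had 4.91 CPM, classical monocytes 1.06 CPM and Ly6C-low monocytes and Cd209 macrophages 0 UMIs. At day 7 Lyve1 macrophages had 20.2 CPM (8.12 to 41.6), and monocytes and granulocytes had 0 UMIs, which for the 554 classical monocytes allows up to 0.542% of cells with a UMI. Vsig4 macrophages exceeded all other gated cells 6.47-fold at steady state (log2 2.69, 2.50 to 2.89) and 95.3-fold at day 7 (6.57, 5.79 to 7.45). The other side held different classes, as macrophages were 865 of 1630 cells at steady state and 148 of 1200 at day 7. Folds and lists of members against other gated cells are thus not comparable between the libraries. Members at least 2-fold higher in Vsig4 macrophages were S100b and S100a1 at steady state, beside 5.33% of genes, and these with S100a6 and S100a10 at day 7, beside 23.2%. At least 2-fold lower in Vsig4 macrophages were S100a11, S100a8 and S100a9 in both libraries, beside 7.12 and 13.3% of genes. For S100a8 and S100a9 the other side was set by the granulocytes, and at steady state the other macrophage subsets had 0 to 15.9 CPM of S100a8 and 3.31 to 7.76 CPM of S100a9 beside 10.3 and 3.98 CPM in Vsig4 macrophages. Over Lyve1 macrophages the S100b log2 ratio was 1.45 (1.24 to 1.67) at steady state, where 0.959% of genes were at least 2-fold higher, and 2.99 (1.88 to 4.35) at day 7, where 6.58% were. No member was 2-fold lower than in Lyve1 macrophages at steady state, beside 1.01% of genes, and 1 was at day 7 (S100a8, log2 -1.29), beside 5.87%.

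S100b was uneven from cell to cell. Of 422 Vsig4 macrophages at steady state, 226 had 0 UMIs, 55 had 1, 116 had 2 to 9 and 25 had 10 or more, with 28 as the highest. At 2000 UMIs per cell 22.8% (18.8 to 27.2%) of them had an S100b UMI, and at day 7 25.8% (15.5 to 38.5%), with 46.5 and 44.9% before thinning. In the Lyve1 gate 263 of 297 cells had 0 UMIs, but 5 cells had 12 to 47. These 5 cells had 0 Vsig4 UMIs, 323 CPM of Cx3cr1 and 2481 CPM of Sparc, against 23.07 CPM of Cx3cr1 and 331 CPM of Sparc in the 263 cells without S100b. They were chosen after their values had been seen. In the fibroblast gate 8 of 65 cells held all 41 S100b UMIs, and Vsig4 had 0 UMIs in these 8 cells.

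Within the Vsig4 gate, cells with and without S100b differed in other genes and surface proteins. At 2000 UMIs per cell the 91 steady-state cells with an S100b UMI had 242 CPM of Cx3cr1 (176 to 325), the fractalkine receptor, against 106 CPM (81.4 to 135) in the 308 without. Cd163, the haemoglobin scavenger receptor, was at 76.9 CPM (42.0 to 129) against 297 CPM (256 to 343). Vsig4 itself was at 3203 against 2315 CPM, Lyve1 at 3401 against 4115 CPM and Sparc at 2819 against 1334 CPM. The same directions held at day 7 in 16 against 46 cells, with Cx3cr1 at 375 against 163 CPM and Cd163 at 219 against 457 CPM, both with overlapping intervals, and Sparc at 2094 against 891 CPM, with separate ones. The steady-state CD163 antibody had a median of 86.5 counts in cells with 0 S100b UMIs, 26.5 with 1 and 26.0 with 2 or more. The CX3CR1 antibody had medians of 1, 4 and 7 counts and the CD11b antibody 526.5, 870.0 and 994.0, while total antibody counts per cell went from 1532.5 through 2037.5 to 2176.0. At day 7 the groups held 46, 11 and 5 cells. Their CD163 medians were 172.5, 69.0 and 153 counts, the CX3CR1 medians 1, 1 and 2 and the CD11b medians 163, 162 and 425. Total antibody counts per cell at day 7 were 919.5, 966.0 and 1430.0. Per 10000 antibody counts of a cell, CD163 went down at steady state (721.8, 201.6 and 77.24) and at day 7 (2107.3, 1146.2 and 1069.9). CD11b went up in both, from 3602.8 through 4770.9 to 4784.2 and from 1640.1 through 2008.3 to 2647.5. The RNA of CD11b, Itgam, was not higher in cells with an S100b UMI than in those without. It was at 697.8 against 763.0 CPM at steady state and 437.5 against 728.3 CPM at day 7, with overlapping intervals. CX3CR1 went up at steady state (8.163, 25.99 and 31.49), but at day 7 stood at 11.38, 19.92 and 11.03.

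S100a1 was low and spread over the macrophages. Vsig4 macrophages had 322 CPM (306 to 338) at steady state and 340 CPM (291 to 394) at day 7. Lyve1 (267), Aqp1 (263), Cd209 (202) and other (170) macrophages followed at steady state with overlapping neighbours, then cDC2 at 149 CPM. Classical monocytes (53.2), fibroblasts (38.6), intermediate (35.5) and Ly6C-low (29.2) monocytes overlapped at the bottom. At day 7 early granulocytes, with 195 CPM (166 to 228), overlapped Lyve1 macrophages (234), whereas late granulocytes had 92.9 and classical monocytes 67.1 CPM. Macrophages exceeded classical monocytes by log2 2.45 at steady state and 2.03 at day 7. At 2000 UMIs per cell 44.9% of steady-state Vsig4 macrophages and 2.80% of Ly6C-low monocytes had an S100a1 UMI (82.7 and 17.8% before thinning).

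Fibroblasts carried S100a6, S100a4, S100a10 and S100a11 at levels within the range of the myeloid classes. Over all other gated cells of steady state, S100a6 was at a log2 ratio of 0.04, S100a11 at 0.12, S100a4 at -0.61, S100a10 at -0.75 and S100b at -0.35 (-0.84 to 0.10). S100a1 was at -2.50, with 25 UMIs in 65 cells. No member was at least 2-fold higher in fibroblasts, beside 17.4% of all genes, and 3 were at least 2-fold lower (S100a1, S100a8 and S100a9), beside 23.9%. For S100a8 and S100a9 the other side was set by the 5 granulocytes, and the levels of 4.64 and 10.8 CPM lay beside 8.71 and 5.38 CPM in macrophages. The 16 fibroblasts of day 7 had 6856.5 CPM of S100a6, 1997 CPM of S100a4, 979.5 CPM of S100a10 and 356 CPM of S100a11.

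Across macrophages with any Vsig4 RNA, S100b and S100a1 were higher at higher Vsig4 levels, and S100a10 and S100a11 were lower. At steady state S100b was at 68.2 CPM in the 351 cells without a Vsig4 UMI, which include the 5 Lyve1-gated cells above. It was at 1.88 CPM (2 UMIs) up to 5 Vsig4 UMIs per 10000, 55.2 CPM from 5 to 20, 219 CPM from 20 to 40 and 343 CPM from 40 on. S100a1 went from 267.5 CPM in the range above 0 to 397 CPM. Over the same ranges S100a10 went from 3626 to 1393 CPM and S100a11 from 574 to 244 CPM. Day 7 macrophages showed the same directions, with S100a1 from 175 to 363 CPM, S100a10 from 2096 to 1763 CPM and S100a11 from 341 to 192 CPM between the range above 0 and the range of 20 to 40, beyond which only 2 cells lay. These ranges held 16 and 27 cells, and their intervals were separate for S100a1. They overlapped for S100a10 (1839 to 2379 against 1585 to 1955) and S100a11 (242 to 466 against 136 to 262). Vsig4 macrophages were also below Aqp1 macrophages in S100a11 (log2 -1.94, -2.06 to -1.83) and S100a10 (-1.14, -1.20 to -1.09). These were the 2 of 6 members at least 2-fold lower there, beside 3.00% of genes, and S100b was the 1 higher (5.24, 3.88 to 7.12), beside 5.75%.

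**Figure D4:**
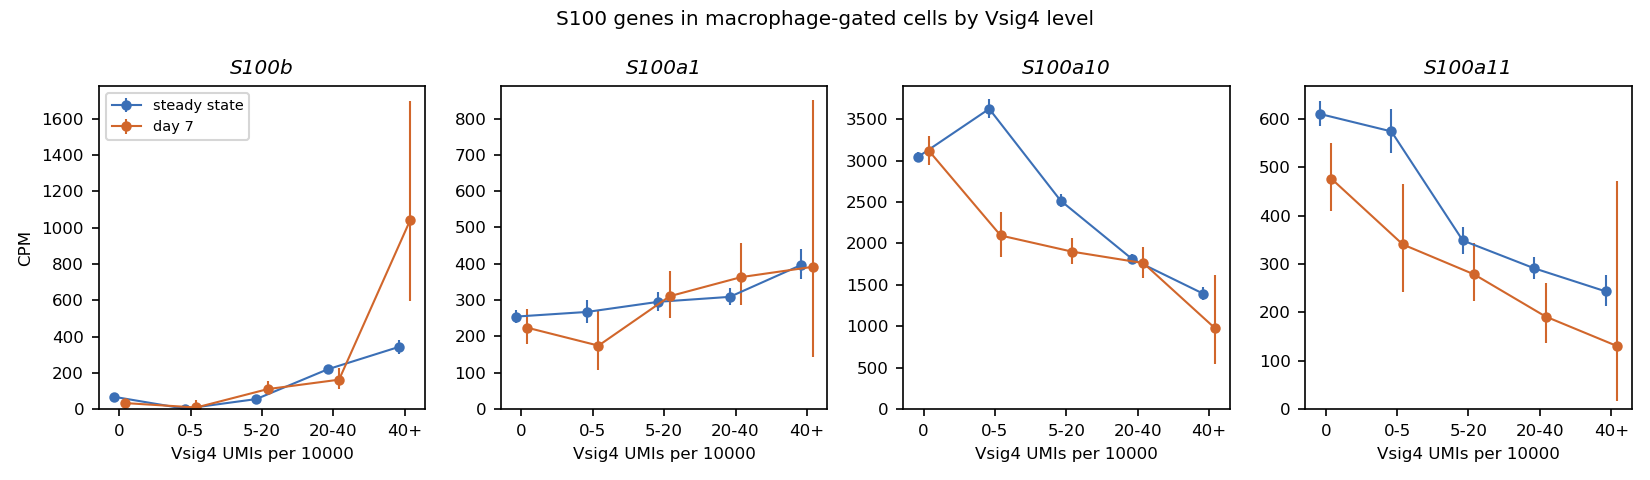
CPM of 4 S100 genes in macrophage-gated cells by Vsig4 UMIs per 10000, steady state in blue and day 7 in orange, with 95% counting intervals; the highest range holds 72 steady-state and 2 day 7 cells. S100b reaches 343 CPM and S100a1 397 CPM at the highest Vsig4 level of steady state, while S100a10 and S100a11 go down to 1393 and 244 CPM.

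Host and donor origin, read from the CD45.2 and CD45.1 antibodies, divided the macrophages in the same members. At steady state 693 host-class macrophages had 374 CPM of S100a11 against 1047 CPM in 106 donor-class macrophages (log2 -1.49, -1.59 to -1.38), and at day 7 92 and 15 cells had 287 against 880 CPM (-1.61, -2.00 to -1.21). S100a11 was the member at least 2-fold lower in host-class cells, beside 2.85% of genes at steady state and 13.3% at day 7. S100b was the member at least 2-fold higher at steady state, with 119 against 23.0 CPM (log2 2.37, 1.79 to 3.02), beside 4.25% of genes. At day 7 S100b (log2 3.03, 0.51 to 8.35) and S100a9 (1.14) were at least 2-fold higher, beside 14.1% of genes, but from 73 UMIs against 1 and 59 against 3, and S100b was at -0.07 with equal weight per cell. S100a10 (log2 -0.59 and -0.71) and S100a6 (-0.39 and -0.48) were lower in host-class cells by less than 2-fold.

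Origin and subset overlap, because the donor-class macrophages of steady state were mostly in the Aqp1 (40 cells) and Lyve1 (34) gates and few in the Vsig4 gate (6). Within Aqp1 macrophages, 39 host-class cells still had less S100a11 than 40 donor-class cells, 727.5 against 1655 CPM (log2 -1.19, -1.39 to -0.98), and it was the member past 2-fold beside 5.81% of genes lower and 10.8% higher. Within Lyve1 macrophages, 247 and 34 cells had 475 and 528 CPM of S100a11 (log2 -0.15, -0.39 to 0.09), so the difference of the whole class was not detectable there. S100b had 150 UMIs in the host-class Lyve1 cells and 0 in the donor-class ones, beside 5.36% of genes at least 2-fold higher and 3.49% lower. After thinning, 4.13% of 242 host-class cells (2.00 to 7.47%) and 0 of 30 donor-class cells had an S100b UMI, and the latter allows a share of up to 10.00%, so a difference in S100b was not detectable in this subset. In Vsig4 macrophages the 6 donor-class cells had 753 CPM of S100a11 against 290 CPM in 376 host-class cells. At 2000 UMIs per cell 21.9% of 366 host-class and 2 of 5 donor-class Vsig4 macrophages had an S100b UMI.

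Day 7 was then compared with steady state within each class of at least 20 cells in both libraries. S100a4 was higher at day 7 in all 5 classes of monocytes and macrophages compared. The largest ratio was in Ly6C-low monocytes, 1049 CPM at steady state and 2408 CPM at day 7 (log2 1.20, 1.08 to 1.32). The median cell had 5.65 and 21.5 S100a4 UMIs per 10000. It was the member at least 2-fold higher in this class, beside 5.95% of genes, and the median log2 ratio of the 7 members was 0.18 against 0.08 over all genes. In intermediate monocytes S100a4 was at a log2 ratio of 0.82 (0.69 to 0.95), in classical monocytes at 0.42 (0.37 to 0.48), in Vsig4 macrophages at 0.40 (0.33 to 0.46) and in Lyve1 macrophages at 0.31 (0.23 to 0.39), all under 2-fold. The median over all genes lay between 0.08 and 0.16 in these 5 classes. The Ly6C antibody median was 4 counts at steady state and 12 at day 7 in the Ly6C-low gate, 1 and 3 in macrophages and 5 and 12.5 in fibroblasts, while the median of the classical monocyte marker list was 26.3 and 25.9 per 10000. Among Ly6C-low cells without a Ly6c2 UMI (100 and 79 cells), S100a4 was at log2 1.23 (1.08 to 1.37).

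S100a6, S100a10 and S100a1 stayed under 2-fold in these 5 classes. S100a6 was at log2 ratios of 0.13 in classical, 0.54 in intermediate and 0.48 in Ly6C-low monocytes and at 0.14 and 0.15 in Vsig4 and Lyve1 macrophages. S100a10 was at -0.08, 0.72, -0.05, -0.13 and -0.02 in the same order. S100a11 was higher in classical (0.30, 0.22 to 0.38) and intermediate (0.58, 0.34 to 0.81) monocytes and lower in Vsig4 (-0.32, -0.59 to -0.06) and Lyve1 (-0.45, -0.73 to -0.18) macrophages. S100b was level in Vsig4 macrophages (-0.21, -0.55 to 0.11). In Lyve1 macrophages it was lower (-1.74, -3.08 to -0.68), beside 3.58% of genes at least 2-fold lower, from 218 UMIs against 7, and 105 of the 218 lay in 5 cells. With the marker threshold doubled that ratio was 0.09. In classical monocytes none of the 7 members passed 2-fold in either direction, beside 3.14% of genes higher and 1.50% lower, but without the 5 cells richest in the pair S100a8 (4.76) and S100a9 (4.58) did.

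S100a9 and S100a8 were above steady state in day 7 macrophages, by log2 4.16 (3.33 to 5.04) and 1.05 (-0.05 to 2.01) in Vsig4 and by 3.33 and 2.86 in Lyve1 macrophages. Both were at least 2-fold higher, beside 3.29% of genes in Vsig4 and 5.31% in Lyve1 macrophages, and no member was 2-fold lower in Vsig4 macrophages, beside 2.48% of genes. S100a8 in Vsig4 macrophages rested on 11 UMIs at day 7, and without the 5 richest cells it was at 0.83, under 2-fold. In intermediate monocytes they were at 6.97 and 6.17, beside 9.13% of genes at least 2-fold higher and 6.24% lower, from a class in which 1 cell held most of the UMIs. In Ly6C-low monocytes they were at -1.69 and -1.19, beside 4.68% of genes at least 2-fold lower, and at 3.62 and 3.04 once the 5 richest cells of each library were left out.

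Summed over all cells the picture followed the classes each library held. S100a8 and S100a9 were at log2 4.54 and 4.65, beside 6.51% of genes at least 2-fold higher. S100b (-2.91), S100a10 (-1.44) and S100a1 (-1.07) were at least 2-fold lower, beside 10.6% of genes. Macrophages were 865 of 1630 cells at steady state and 148 of 1200 at day 7, so these sums mix levels with numbers of cells.

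**Figure D5:**
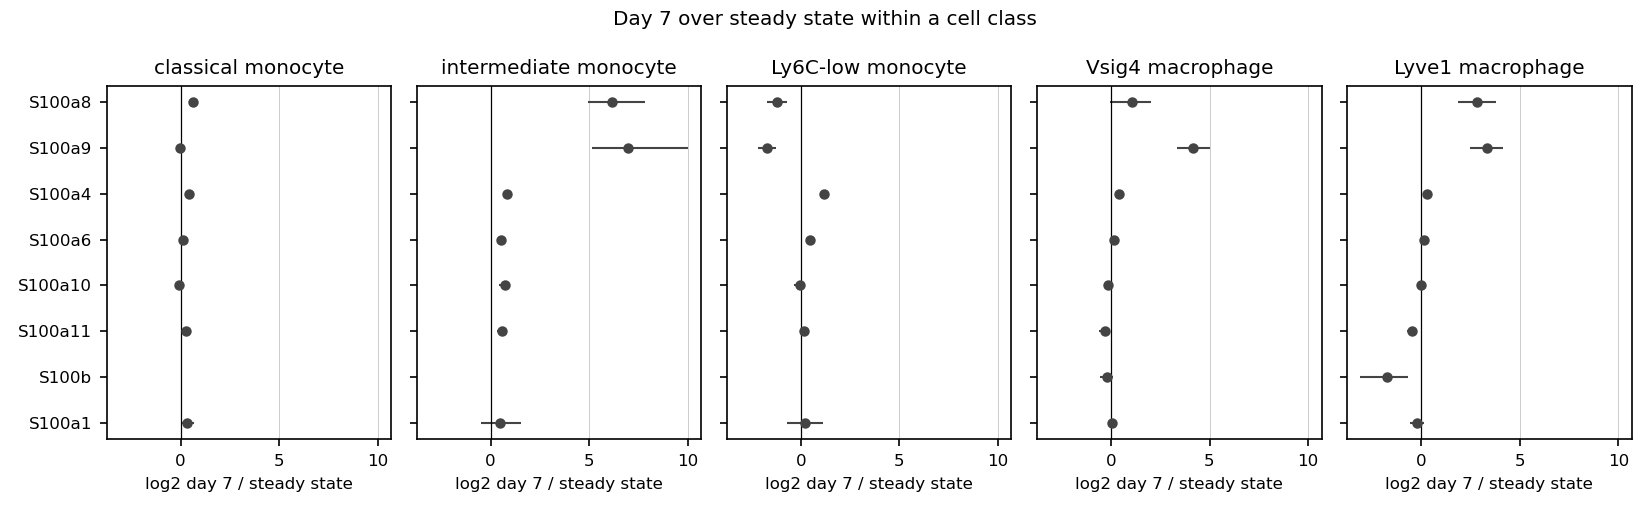
Log2 ratio of CPM, day 7 over steady state, for the S100 genes in 5 cell classes, with 95% counting intervals; a gene with 0 UMIs in a library is left out. S100a4 lies right of 0 in all 5 panels, farthest in Ly6C-low monocytes (1.20), and S100a8 and S100a9 lie left of 0 only in Ly6C-low monocytes, save for S100a9 at -0.03 in classical monocytes.

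Over the 19 class-by-library profiles of at least 20 cells, which include the ungated cells of both libraries, the members fell into groups by their correlation. It is given as a description, since profiles of a library share depth and may share free RNA. S100a8 and S100a9 had r = 0.99. S100a4 had r = 0.92 with S100a10 and 0.89 with S100a6, and S100a6 and S100a10 had 0.93. S100a8 against S100a4 was at -0.80. S100b and S100a1 had 0.51, and S100a11 had no r above 0.43 with another member. Among 5629 genes, those most like S100a8 were Lcn2 (0.949), Rab44 (0.943) and Hist1h2bb (0.934), and those most like S100a9 were Lcn2 (0.935), Rab44 (0.932) and Fcnb (0.924). S100a4 was closest to Crip1 (0.971), Ahnak (0.969) and Glud1 (0.965), S100a10 to Dpysl2 (0.966), Pdlim1 (0.966) and Crip1 (0.965), and S100a6 to Ube2h (0.915), Rtn4 (0.913) and Crip1 (0.908). S100a11 was closest to Cd24a (0.882), Lmo1 (0.862) and Glipr2 (0.827). S100b was closest to Olfml3 (0.962), Enpp1 (0.947) and Chst1 (0.94), and S100a1 to Atp6ap2 (0.939), Uchl3 (0.934) and Ocrl (0.93).

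Of 9 other S100 genes measured, 2 reached 20 CPM in a class of at least 20 cells. S100a13 was found in all of them, from 183 CPM in late granulocytes at day 7 to 504 CPM in Vsig4 macrophages at steady state. S100a16 was found in fibroblasts, at 252 CPM in 65 cells of steady state and 203.5 CPM in 16 cells of day 7, and at 10.6 CPM or less in the other classes of at least 20 cells. S100z had 0 UMIs in all classes of both libraries.

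Partners and receptors of the S100 proteins were also looked at by class. In day 7 granulocytes against other gated cells, 6 of 13 partners and receptors with enough RNA were at least 2-fold lower (Anxa2, Anxa5, Anxa6, Ahnak, Tlr4 and Cd36), beside 32.6% of all genes, and Anxa1 was the 1 at least 2-fold higher, beside 9.98%. Their median log2 ratio was -0.97 against -0.57 over all genes. Anxa2, the partner of S100a10, was at 117 CPM in early and 213 CPM in late granulocytes and was highest in cDC2 at 2651 CPM. Ahnak, a scaffold of the S100A10 and annexin A2 complex, was at 11.2 and 34.1 CPM in the granulocyte gates and at 4336 CPM in day 7 macrophages. Anxa1, the partner of S100a11, was at 1206 CPM in early and 2491 CPM in late granulocytes, against 312.5 CPM in classical monocytes. Cacybp ranged from 38.9 CPM in late granulocytes to 145 CPM in Aqp1 macrophages, among classes of at least 20 cells. Of the receptors for extracellular S100 proteins, Ager had at most 5.77 CPM in any of these classes, and Tlr4 at most 39.7 CPM. In cDC2 1 of 13 partners was at least 2-fold higher (Anxa2), beside the 5.08% of genes given above. In Ly6C-low monocytes Cd36 was the 1 of 12 partners that differed at least 2-fold between day 7 and steady state, with 176 against 401 CPM, beside the 4.68% given above.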

How the data were processed

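Raw UMI counts per gene and antibody in each cell barcode were deposited by the authors. They were made with Cell Ranger 6.1.2 on mm10, per the submitters' processing notes, which also name Seurat 4.4.0. The strand setting of the counting is not given in the sources used here. A barcode was kept at 500 or more UMIs, 200 or more genes and no more than 10% of UMIs from mitochondrial genes (1637 of 1912 at steady state, 1210 of 1277 at day 7), and 7 and 10 doublets called by Scrublet in scanpy 1.11.5 were removed. Few barcodes were called (0.428 and 0.826%).

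Classes were set by summed marker UMIs per 10000 of each cell. The thresholds were chosen after the marker distributions, not the S100 values, had been seen, and the members and gene lists were chosen with earlier results of these data known. Origin was set by a 2-component mixture on log2 of CD45.2 over CD45.1 antibody counts (sklearn 1.9.0). UMIs were summed over a class and scaled to 1000000. Intervals are exact Poisson, conditional exact for ratios and Clopper-Pearson for shares (scipy 1.17.1, 95%), and a count of 0 was set to a floor of 3. Other settings of the gates, depth, filters and weighting were tried, and 2 of them were added after seeing the data. Genes with at least 20 CPM on either side of a ratio were used for the background shares. Cells were thinned to 2000 UMIs for shares, which left out 133 and 182 shallower cells. The ratio, its interval and the correlation were tested on simulated data.

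Named genes were the 8 members, the members of both pathway lists that reach 20 CPM in a class and, for each member, the 3 genes with the highest Pearson correlation of log2(CPM + 10) among genes reaching 50 CPM in a profile, leaving out ribosomal, mitochondrial, Gm and Rik genes. Genes describing the S100b-positive cells, Ager and S100z were named after seeing the data.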

Additional observations from a re-analysis of the deposited data

Results flagged for a closer look

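S100a8 and S100a9 had opposite directions, day 7 over steady state, in different classes, and the difference between classes was not tested. S100a8 was at log2 6.17 in intermediate monocytes and 2.86 in Lyve1 macrophages but at -1.19 in Ly6C-low monocytes. S100a9 was at 6.97 in intermediate monocytes, 4.16 in Vsig4 macrophages and 3.33 in Lyve1 macrophages but at -1.69 in Ly6C-low monocytes. The Ly6C-low direction turned with the setting, to 3.04 for S100a8 and 3.62 for S100a9 without the 5 richest cells. In the Ly6C-low class of steady state 1 cell held 348 of 366 UMIs of the pair, and in the intermediate class of day 7 1 cell held 795 of 903.

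Cells that passed no gate also carried the pair at day 7. They enter none of the ratios between classes but are among the profiles used for the correlations. They had 2332.1 CPM of S100a8 and 2496.0 CPM of S100a9, against 42.1 and 38.2 CPM in the ungated cells of steady state. The 5 richest of 151 cells held 81.2% of these UMIs, 13 cells held 10 or more, and the class had a median of 2801 UMIs per cell at day 7. Without those 5 cells 448 and 544 CPM remained.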

How the results depend on the processing

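No paired analysis was possible because each group is 1 library and the labels carry no replicate numbers. Over 3887 values under another setting, 2686 stayed within the counting interval of the value reported and 1188 left it. Among 1777 ratios, 13 changed sign from a value of at least 2-fold whose interval did not include 0. With 1 library per group, the intervals leave out the spread between animals. The causes of the changes were not tested.

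These sign changes follow. Among smaller ratios, S100a9 in classical monocytes (-0.03, day 7 over steady state) was at 4.58 without the 5 richest cells. For S100a8 in Ly6C-low monocytes (log2 -1.19, day 7 over steady state) the ratio was 3.22 with marker thresholds doubled, 4.57 with them halved, 0.50 with equal weight per cell, 0.44 in thinned cells, and, in 2 settings added after seeing the data, 3.04 without the 5 cells richest in the pair and 3.33 in cells without a Ly6c2 UMI. For S100a9 it was 2.16, 5.16, 3.62 and 2.46 with doubled and halved thresholds and in the 2 added settings. S100b in Lyve1 macrophages (-1.74) was at 0.09 with doubled thresholds and 1.44 in Leiden clusters, and its host over donor ratio at day 7 (3.03) was -0.07 with equal weight per cell.

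The other main values kept their direction. S100a9 in granulocytes over other gated cells (9.03) was 9.56 with doubled and 8.75 with halved thresholds, 8.01 in Leiden clusters, 9.37 with the pair left out of totals, 9.33 with equal weight and 9.66 in thinned cells. S100a4 there (-5.75) was -6.78 in Leiden clusters, -4.94 with doublet calls kept, -5.41 without the pair in totals and -5.35 with equal weight. S100b in Vsig4 macrophages over other gated cells was, at steady state (2.69), 2.36 with doubled thresholds, 5.25 in Leiden clusters, 2.97 with equal weight and 2.99 in thinned cells, and at day 7 (6.57) 5.69, 5.74 and 5.75 with doubled thresholds, equal weight and thinned cells. S100a11 in cDC2 (2.18) was 2.11, 2.09, 2.08 and 2.27 with doubled and halved thresholds, equal weight and thinned cells. S100a4 in Ly6C-low monocytes (1.20) was 1.50 with doubled thresholds, 1.03 in Leiden clusters, 1.50 with equal weight and 1.47 in thinned cells. The S100a9 to S100a8 ratio of classical monocytes (0.392) was 0.671 in Leiden clusters, 0.432 with equal weight and 0.332 without the 5 richest cells. Their pair to late granule ratio (5.57) was 4.72 with doubled thresholds, 7.43 in Leiden clusters, 4.87 with equal weight and 3.90 without the 5 richest cells. S100a11 in host over donor macrophages (-1.49 and -1.61) was -1.31 and -1.02 with equal weight. The share of Vsig4 macrophages with an S100b UMI (22.8 and 25.8%) was 46.5 and 44.9% without thinning.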
